A study of Homo sapiens with 14 samples.

Results

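The 9 genes described here encode receptors through which cells sense chemoattractants, together with 2 of their protein ligands, and they are 9 of the 19410 gene rows in the table: the chemokine receptor CXCR4 and its ligand CXCL12, the chemerin receptor CMKLR1 and the chemerin precursor RARRES2, the lysophosphatidic acid receptor LPAR1, the sphingosine 1-phosphate receptors S1PR1 and S1PR3, and the protease-activated receptors F2R and F2RL1. They were taken by gene name. The set was chosen because of the opposite directions of CXCR4 in the MLL1-KO lines and the loss of CMKLR1 in SIN3A+SIN3B-DKO1, so those values are given as a description, with no test. RNA-Seq was performed on untreated MDA-MB-231 cells, an established triple-negative breast cancer line grown in DMEM with serum, and on 6 lines derived from it with CRISPR/Cas9, at 2 libraries per condition and 14 in all. The genotypes were parental, SAP30-KO1 and SAP30-KO2, SIN3A+SIN3B-DKO1 and SIN3A+SIN3B-DKO2, and MLL1-KO1 and MLL1-KO2. SAP30 and SIN3A/SIN3B belong to the SIN3 histone deacetylase complex, and MLL1, also named KMT2A and listed as MLL in the table, is a histone H3 lysine 4 methyltransferase. Per the study's methods, each edited line is a mixture of several selected single-cell KO clones, and the SAP30 and MLL1 lines were made with a different sgRNA each. The KO cells had also received an sgRNA vector and been selected with puromycin, and no scrambled-guide control is among the conditions. Changes shared by all 6 lines cannot be told apart from effects of these steps. All 6 comparisons with parental share its 2 libraries and are not independent of each other. The labels do not say whether the libraries of a condition came from separate cultures, and p-values measure only the spread between these libraries, which may be technical.

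Chemoattractant receptors span the membrane and signal through heterotrimeric G proteins, and they turn gradients of peptides, lipids or protease activity into directed movement, adhesion and survival. CXCR4 on breast cancer cells is known for homing towards CXCL12 made by stroma in lung, lymph node and bone marrow. Lysophosphatidic acid is made outside the cell by autotaxin (ENPP2), sphingosine 1-phosphate is made inside it by sphingosine kinases and exported by SPNS2, and the protease-activated receptors are switched on when thrombin or trypsin-like proteases cut their extracellular end. After activation, GRK kinases phosphorylate such receptors and arrestins switch them off and internalise them.

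The start regions of the receptor and ligand genes differ in their content of CpG, the dinucleotide at which DNA is methylated. RefSeq windows of GRCh38.p14 were matched by symbol for 8 of the 9 genes, 16 windows in all, and the 250 bases before each start were read. F2R had no window. The CXCR4, CMKLR1 and RARRES2 windows are printed, for the receptors on which the set was chosen and the ligand precursor read in parental cells only, with each CG in capitals. They lie at chr2:136118150-136118399, chr12:108320643-108320892 and chr7:150341630-150341879, all 3 on the minus strand, and are written 5′ to 3′ along the gene.
CXCR4: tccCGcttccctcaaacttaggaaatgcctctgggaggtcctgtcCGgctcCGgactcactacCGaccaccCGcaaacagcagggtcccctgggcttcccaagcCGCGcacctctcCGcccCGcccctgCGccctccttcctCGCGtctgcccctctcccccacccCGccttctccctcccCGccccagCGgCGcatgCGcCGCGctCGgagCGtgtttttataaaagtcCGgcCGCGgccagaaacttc
CMKLR1: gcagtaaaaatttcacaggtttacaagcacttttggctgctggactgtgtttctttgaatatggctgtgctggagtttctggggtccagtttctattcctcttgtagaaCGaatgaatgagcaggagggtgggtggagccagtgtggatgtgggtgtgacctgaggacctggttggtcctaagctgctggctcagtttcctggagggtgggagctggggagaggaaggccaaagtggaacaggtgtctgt
RARRES2: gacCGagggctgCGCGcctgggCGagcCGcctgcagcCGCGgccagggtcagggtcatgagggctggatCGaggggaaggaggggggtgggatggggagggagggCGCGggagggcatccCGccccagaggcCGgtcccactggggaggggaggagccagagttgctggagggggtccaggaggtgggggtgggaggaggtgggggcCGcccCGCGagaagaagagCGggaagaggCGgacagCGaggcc
The CXCR4 window, the first of 3 for this gene, holds 24 CG, and 23.7% of 35114 windows hold at least as many, while the other windows of CXCR4 hold 12 and 8. The CMKLR1 window holds 1, and 14.7% of windows hold no more than that, against a median of 11. RARRES2 has 18 and S1PR1 18, F2RL1 has 26, CXCL12 has 31, the S1PR3 windows have 10 and 28, and the 6 LPAR1 windows range from 2 to 39. The GC box letters GGGCGG, searched on both strands, occur in 42.6% of all windows. They occur in the printed windows of CXCR4 and RARRES2 and not in that of CMKLR1. Windows counted by sequence alone describe the DNA and not its methylation or use in these cells.

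Levels are given in TPM, reads scaled for gene length and to a fixed total per library, for replicate 1 and then replicate 2. Genes with at least 1 TPM in at least 2 libraries were tested, 13540 in all, on log2(TPM + 0.5) with limma. Called genes had a Benjamini-Hochberg adjusted p, over all genes tested, under 0.05 and a change of at least 1.5-fold on this scale, which understates changes of low genes. Of the 9 genes, 8 passed this filter, and CXCL12 did not. RARRES2 passed only through the parental libraries, so it had to differ from parental, and its calls carry no weight. The libraries held 18415162 to 23162849 recovered reads. SAP30 RNA was at 80.8 TPM in parental and at 3.43 (SAP30-KO1) and 3.86 (SAP30-KO2) where it was targeted. MLL RNA fell from 52.8 TPM to 16.6 and 26.7 in the MLL1-KO lines. MLL was also lower in SAP30-KO1 and SAP30-KO2, at 27.3 and 33.4 TPM, log2 fold changes of -0.95 and -0.65, and there the median of the 51 genes around it was itself at -0.86 and -0.91. That median was -0.94 in MLL1-KO1, where MLL changed by -1.64, and -0.42 in MLL1-KO2, where it changed by -0.97. SIN3B RNA fell from 76.2 TPM to 49.6 and 46.6 in the libraries labelled SIN3A+SIN3B-DKO1 and SIN3A+SIN3B-DKO2, whereas SIN3A RNA was not lower there, at 61.6 and 55.1 against 44.2. These 4 libraries are therefore named by their label, and RNA levels do not show whether a protein is lost. Per the study, its KO cells were checked by immunoblot, and it shows blots of SIN3A and SIN3B for cells named SIN3A/3B-DKO. VIM, CD44, AXL, CAV1 and MSN summed to 8723 to 11938 TPM, ESR1 was at most 0.191 and PGR was at 0 in 12 libraries, as the line's triple-negative, mesenchymal-like description has it, while GATA3 was at 8.16 to 17.3 and EPCAM at 5.33 to 19.2. CDH1 was at most 1.25 TPM. Of the markers of other cells, the endothelial PECAM1, CDH5, KDR and TEK summed to 3.3 to 9.65 TPM, with CDH5 at 0 in 12 libraries and the highest sums, 9.5 and 9.65, in MLL1-KO2. The platelet genes PF4 and ITGA2B summed to at most 0.246 TPM, and GP9 was not analysed. PF4 was above 0 in the parental libraries only, at a mean of 0.165 TPM, and ITGA2B was not highest there. The fibroblast genes PDGFRB, COL1A1 and COL3A1 summed to 5.71 to 14.9 TPM, mostly COL1A1, and were highest in MLL1-KO1. The part of these levels in the results was not tested.

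**Figure D1:**
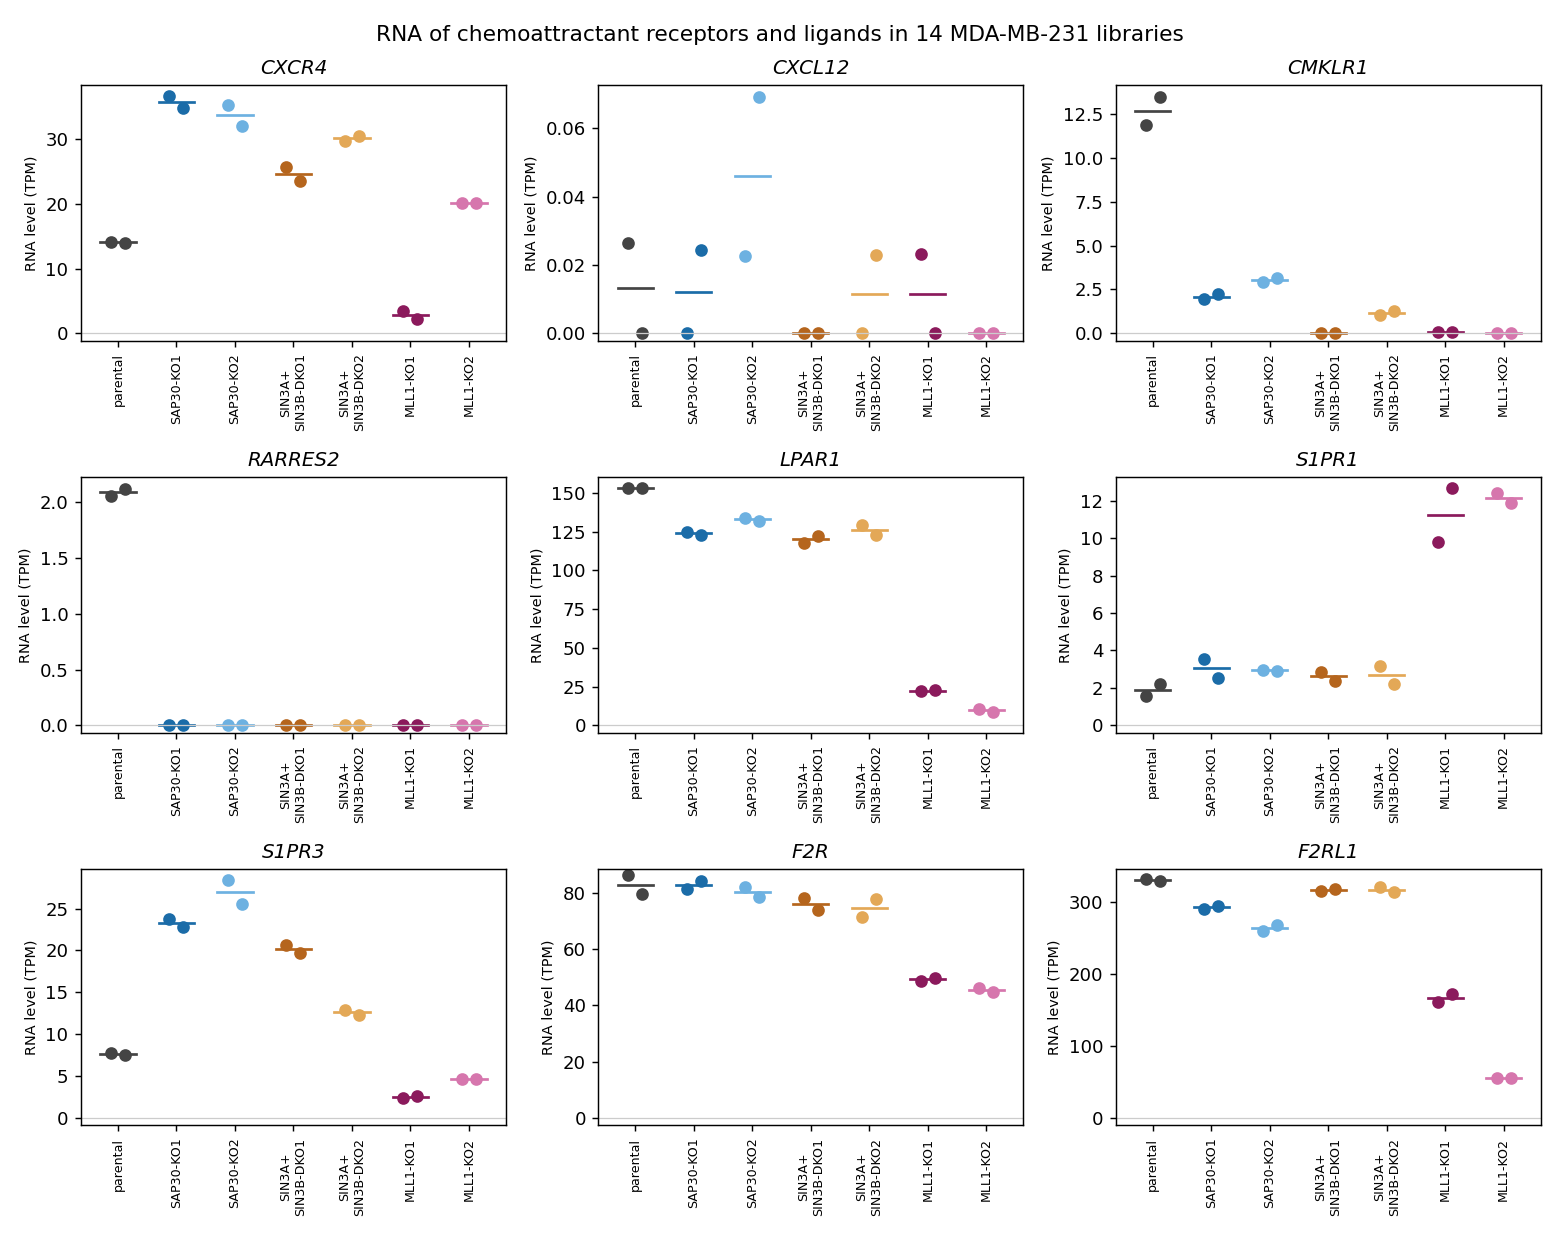
RNA level in TPM (linear axis from 0, a different range for each gene) of the 9 genes in the 14 libraries, with a point for each library and a line at the mean of the 2 libraries of a condition. CXCR4 is highest in the SAP30-KO lines and lowest in MLL1-KO1, CMKLR1 and RARRES2 are highest in parental cells, and CXCL12 stays under 0.1 TPM throughout.

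CXCR4, the receptor for CXCL12, was higher than parental in 5 lines and far lower in MLL1-KO1. Its gene lies at chr2:136871919-136876747 on the minus strand (GRCh37). CXCR4 was at 14.1 and 14 TPM in parental, 36.7 and 34.9 in SAP30-KO1, 35.3 and 32.1 TPM in SAP30-KO2, 25.7 and 23.5 in SIN3A+SIN3B-DKO1, 29.8 and 30.6 in SIN3A+SIN3B-DKO2, 3.49 and 2.17 in MLL1-KO1, and 20.2 and 20.1 TPM in MLL1-KO2. From low to high the conditions ran MLL1-KO1, parental, MLL1-KO2, SIN3A+SIN3B-DKO1, SIN3A+SIN3B-DKO2, SAP30-KO2 and SAP30-KO1, and only the libraries of SAP30-KO2 and SAP30-KO1 overlapped between neighbours in this order. The rises in the lines on which the gene was not chosen passed the limma test, with a log2 fold change of 1.32 ± 0.14 (SE) in SAP30-KO1 (adjusted p = 1.8e-05), 1.23 in SAP30-KO2 (adjusted p = 3e-05) and 1.08 in SIN3A+SIN3B-DKO2 (adjusted p = 9.2e-05). These contrasts share the parental libraries with those that chose the gene, so their p-values are not independent of that choice. The SAP30-KO lines differed from each other by -0.09 (limma adjusted p = 0.82).
On the contrasts that chose the set, the log2 fold change from parental was 0.78 in SIN3A+SIN3B-DKO1, -2.16 in MLL1-KO1 and 0.50 in MLL1-KO2, so that the MLL1-KO lines stood 2.66 apart. The MLL1-KO1 libraries rest on 57 and 35 reads, against 197 to 592 in all other libraries. Without replicate 1 of MLL1-KO1 the value was -2.44, and without replicate 2 it was -1.87. The 11 tested genes that start within 3 Mb of CXCR4 had log2 fold changes between -0.98 and 0.21 in MLL1-KO1, and for MLL1-KO2 the range was -0.47 to 0.56.
CXCR4 is also abundant on leukocytes, whose markers PTPRC, CD3E, CD14 and ITGAM summed to 2.26 and 2.72 TPM in parental, 3.49 to 4.18 in the SAP30-KO lines, 2.02 to 3.15 in the libraries labelled SIN3A+SIN3B-DKO, 0.722 and 0.861 in MLL1-KO1 and 1.21 and 1.41 TPM in MLL1-KO2. CD3E was at 0 in 13 of 14 libraries, PTPRC reached at most 0.603 TPM, and CD14 made up most of the sum. The part of these low levels in the CXCR4 values was not tested. In bulk RNA, fewer cells with a transcript and less of it per cell cannot be told apart, which bears on lines mixed from several clones.

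CXCL12, the ligand of CXCR4, had 0 to 3 reads in every library and at most 0.0693 TPM. It was not tested, and no fold is given. At this depth no difference in CXCL12 between conditions was detectable.

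CMKLR1, the receptor for the attractant chemerin, was highest in parental cells and lower in all 6 lines, with 0 reads in 4 libraries. It lies at chr12:108681821-108733094 on the minus strand (GRCh37). Its levels were 11.9 and 13.5 TPM in parental, 1.93 and 2.23 in SAP30-KO1, 2.92 and 3.15 TPM in SAP30-KO2, 1.04 and 1.27 in SIN3A+SIN3B-DKO2, and 0.0874 and 0.0444 in MLL1-KO1, and it was at 0 in both libraries of SIN3A+SIN3B-DKO1 and of MLL1-KO2. No condition above 0 overlapped with its neighbour in the order of levels. The tests that follow use the parental libraries on which the gene was also chosen, and their p-values are not independent of that choice. CMKLR1 fell, with a log2 fold change of -2.35 ± 0.15 (SE) in SAP30-KO1 (limma adjusted p = 3.8e-07), -1.90 in SAP30-KO2 (adjusted p = 1.8e-06) and -2.99 in SIN3A+SIN3B-DKO2 (adjusted p = 1.1e-07). In read ratios these were 6.08-fold lower (95% counting interval 5.17 to 7.18), 4.18-fold lower (3.66 to 4.78) and 11-fold lower (8.99 to 13.5).
In the 3 lines whose contrasts chose the set, with a floor of 3 reads per library, CMKLR1 was at least 197-fold lower in SIN3A+SIN3B-DKO1 and at least 166-fold lower in MLL1-KO2. In MLL1-KO1, with 4 and 2 reads, it was 192-fold lower (95% counting interval 87.9 to 524). These intervals and floors cover counting error only. The 44 tested neighbours within 3 Mb changed by -3.27 to 0.50 in MLL1-KO1, with a range of -1.52 to 0.85 in MLL1-KO2, and the lowest of them, HVCN1, starts 2.41 Mb away.

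RARRES2, the precursor of chemerin and so the ligand of CMKLR1, was listed at 2.06 and 2.12 TPM in parental and at 0 in all 12 edited libraries. Both parental values stand for 22 reads, a number that comes from the gene's annotated length, since equal reads in the only libraries above 0 leave the step open. With the floor of 3 reads per library, RARRES2 was at least 7.21-fold lower in MLL1-KO2 and at least 8.61-fold lower in SIN3A+SIN3B-DKO2, with the other 4 lines between these bounds. The bounds differ with library depth only. The receptor and its ligand precursor were thus both highest in parental cells, on few reads for the ligand.

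**Figure D2:**
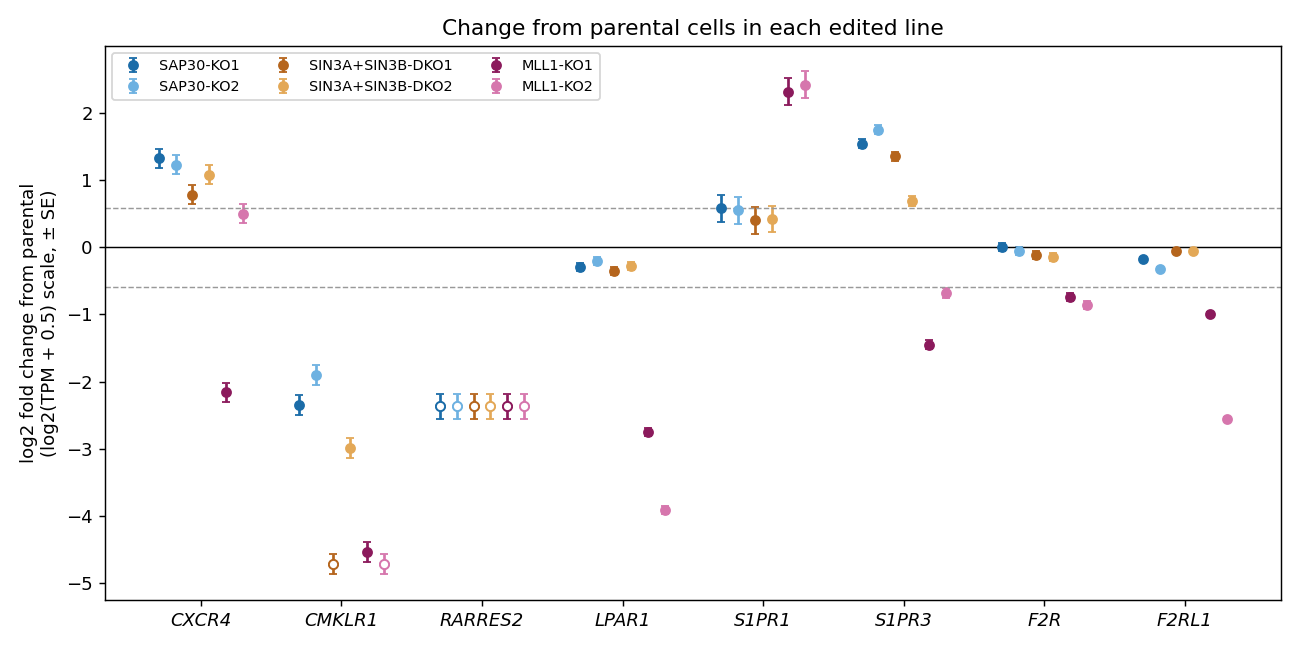
Log2 fold change from parental on the log2(TPM + 0.5) scale (vertical axis) of the 8 tested genes in each of the 6 edited lines, with bars for the standard error and dashed lines at 1.5-fold. Open points have both libraries of the line at 0, where the fitted value is set by the pseudocount and is no bound; CXCR4 and CMKLR1 points in SIN3A+SIN3B-DKO1, MLL1-KO1 and MLL1-KO2 are from the contrasts that chose the set, and S1PR3 stands above 0 in 4 lines and below it in both MLL1-KO lines.

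LPAR1, the most abundant of the 3 lipid receptors in parental cells, fell strongly in the MLL1-KO lines and little in the others. It was at 153 and 153 TPM in parental, 125 and 123 in SAP30-KO1, 134 and 132 TPM in SAP30-KO2, 118 and 122 in SIN3A+SIN3B-DKO1, 129 and 123 in SIN3A+SIN3B-DKO2, 21.9 and 22.8 in MLL1-KO1, and 10.5 and 8.96 TPM in MLL1-KO2. Every edited library was under both parental libraries. LPAR1 fell, with a log2 fold change of -2.75 ± 0.06 (SE) in MLL1-KO1 (limma adjusted p = 6.5e-11) and of -3.91 in MLL1-KO2 (adjusted p = 3.1e-12). In the other lines the log2 fold changes were -0.20 to -0.35, with adjusted p from 0.00048 to 0.015 and all under the 1.5-fold minimum. The MLL1-KO lines differed from each other by -1.16 (MLL1-KO2 against MLL1-KO1, adjusted p = 1.6e-07). Around LPAR1, on chromosome 9, the median of the 51 nearest tested genes moved by -0.07 in MLL1-KO1 and -0.10 in MLL1-KO2, while single neighbours such as PTGR1, 0.561 Mb away, changed by -3.57 and -3.43.

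The sphingosine 1-phosphate receptors moved in opposite directions in the MLL1-KO lines. S1PR1, which couples to Gi and promotes migration, was at 1.55 and 2.20 TPM in parental, 3.55 and 2.54 in SAP30-KO1, 2.98 and 2.92 TPM in SAP30-KO2, 2.86 and 2.39 in SIN3A+SIN3B-DKO1, 3.15 and 2.23 in SIN3A+SIN3B-DKO2, 9.81 and 12.7 in MLL1-KO1, and 12.4 and 11.9 TPM in MLL1-KO2. The MLL1-KO libraries lay above all others, and the SAP30-KO and SIN3A+SIN3B-DKO libraries overlapped among themselves. S1PR1 rose by a log2 fold change of 2.31 ± 0.20 (SE) in MLL1-KO1 (limma adjusted p = 2e-06) and 2.42 in MLL1-KO2 (adjusted p = 1.2e-06), and these lines differed by 0.11 (adjusted p = 0.68).
In SAP30-KO1 and SAP30-KO2 the S1PR1 values of 0.58 (adjusted p = 0.031) and 0.55 (adjusted p = 0.036) fell just short of the fold minimum, and in the libraries labelled SIN3A+SIN3B-DKO1 and SIN3A+SIN3B-DKO2 the values were 0.40 (adjusted p = 0.1) and 0.42 (adjusted p = 0.098). Single libraries decided these calls. Without parental replicate 2 the SAP30-KO values were 0.78 and 0.75 and both were called, without SAP30-KO1 replicate 2 that line's value was 0.78, and without replicate 2 of SIN3A+SIN3B-DKO2 its value was 0.64, both called. The median of the 51 genes around S1PR1 was itself higher by 0.39 in SAP30-KO1 and 0.31 in SAP30-KO2.

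S1PR3, which couples to Gq and G12/13 as well as Gi, rose in 4 lines and fell in both MLL1-KO lines. It was at 7.77 and 7.52 TPM in parental, 23.7 and 22.8 in SAP30-KO1, 28.4 and 25.6 TPM in SAP30-KO2, 20.7 and 19.7 in SIN3A+SIN3B-DKO1, 12.9 and 12.3 in SIN3A+SIN3B-DKO2, 2.35 and 2.61 in MLL1-KO1, and 4.61 and 4.57 TPM in MLL1-KO2. None of the 7 conditions overlapped with another. The log2 fold change was 1.54 ± 0.07 (SE) in SAP30-KO1 (limma adjusted p = 6.1e-08), 1.75 in SAP30-KO2 (adjusted p = 2.5e-08), 1.35 in SIN3A+SIN3B-DKO1 (adjusted p = 1.6e-07) and 0.69 in SIN3A+SIN3B-DKO2 (adjusted p = 2.2e-05). In the MLL1-KO lines it was -1.45 (adjusted p = 3e-08) and -0.68 (adjusted p = 1.2e-05).
The 2 smallest of these S1PR3 calls ended under single alternatives. With the median of neighbouring genes subtracted, the SIN3A+SIN3B-DKO2 value was 0.57, and with quantile normalization the MLL1-KO2 value was -0.55, both under the fold minimum. The lines of a genotype also differed, by -0.66 in SIN3A+SIN3B-DKO2 against SIN3A+SIN3B-DKO1 (adjusted p = 0.00035) and by 0.77 in MLL1-KO2 against MLL1-KO1 (adjusted p = 1.4e-05). RefSeq gives C9orf47 as another name of S1PR3, and the table lists both, so reads may be split between them. C9orf47 was at most 0.95 TPM on average in any condition.

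The protease-activated receptors F2R, cut by thrombin, and F2RL1, cut by trypsin-like proteases, fell in both MLL1-KO lines and changed by less than 1.5-fold in the other 4. Their genes are neighbours on chromosome 5, with 83.2 kb between the end of F2R and the start of F2RL1. F2RL1 had the highest level of the 9 genes, at 331 and 328 TPM in parental, 290 and 294 in SAP30-KO1, 259 and 267 TPM in SAP30-KO2, 314 and 318 in SIN3A+SIN3B-DKO1, 320 and 313 in SIN3A+SIN3B-DKO2, 161 and 171 in MLL1-KO1, and 55.2 and 55.6 TPM in MLL1-KO2. Both MLL1-KO lines were under every other library and did not overlap with each other. The log2 fold change of F2RL1 was -0.99 ± 0.03 (SE) in MLL1-KO1 (limma adjusted p = 1.1e-09) and -2.56 in MLL1-KO2 (adjusted p = 1e-12), and the lines differed by -1.57 (adjusted p = 5e-10). In SAP30-KO2 the change of -0.32 was under the fold minimum although its adjusted p was 1.1e-05.
F2R was at 86.5 and 79.8 TPM in parental, 81.5 and 84.5 in SAP30-KO1, 82.3 and 78.6 TPM in SAP30-KO2, 78.4 and 73.9 in SIN3A+SIN3B-DKO1, 71.5 and 78.1 in SIN3A+SIN3B-DKO2, 48.9 and 49.9 in MLL1-KO1, and 46.1 and 44.7 TPM in MLL1-KO2. Parental and SAP30-KO libraries overlapped, the SIN3A+SIN3B-DKO libraries lay under all of them, and the MLL1-KO libraries lay lower still. In SIN3A+SIN3B-DKO2 the change of -0.15 (limma adjusted p = 0.04) was under the fold minimum. The log2 fold change of F2R was -0.74 ± 0.06 (SE) in MLL1-KO1 (limma adjusted p = 6.1e-07) and -0.86 in MLL1-KO2 (adjusted p = 1.6e-07), and limma's test between these lines gave -0.12 (adjusted p = 0.1). The 51 genes around F2R had a median of -0.21 and -0.25 there. With that median subtracted, the F2R value in MLL1-KO1 was -0.53 and no longer called.

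Counted over the tested genes of the set, 4 of 8 were called in each of the SAP30-KO lines, against 15.7% (SAP30-KO1) and 15.6% (SAP30-KO2) of all genes tested. CXCR4 and S1PR3 were higher, and CMKLR1 and RARRES2 lower. These 4 were also called in SIN3A+SIN3B-DKO2, where the share over all genes was 13.6%. Leaving out CXCR4 and CMKLR1, which were chosen on these contrasts, 2 of 6 were called in SIN3A+SIN3B-DKO1 (S1PR3 and RARRES2, with 16.4% of all genes called) and 6 of 6 in MLL1-KO1 and in MLL1-KO2 (23.2% and 25.2% of all genes). In the MLL1-KO lines S1PR1 was higher and LPAR1, S1PR3, F2R, F2RL1 and RARRES2 were lower, and 11.4% of all genes were lower in both. RARRES2 is in each of these counts and had to be, and the set was chosen with results known. CXCR4 and CMKLR1, in the counts of the SAP30-KO lines and SIN3A+SIN3B-DKO2, were chosen against the same parental libraries. Over the 5 genes left without CXCR4, CMKLR1 and RARRES2, the median log2 fold change was -0.99 (MLL1-KO1) and -0.86 (MLL1-KO2), where the median of all genes was -0.09 and -0.04. In the other 4 lines S1PR3 alone of these 5 was called. Their median there was -0.0 (SAP30-KO1), -0.05 (SAP30-KO2), and -0.06 in SIN3A+SIN3B-DKO1 and SIN3A+SIN3B-DKO2. Over all genes it was 0.03, 0.01, -0.0 and 0.01 in that order.
Between lines of a genotype, 0 of 8 were called by limma in SAP30-KO2 against SAP30-KO1 (0.148% of all genes), with 3 at an unadjusted p under 0.05 and 0 called by voom on recovered reads. In SIN3A+SIN3B-DKO2 against SIN3A+SIN3B-DKO1, S1PR3 was the 1 called of 6 (2.23% of all genes), and in MLL1-KO2 against MLL1-KO1, LPAR1, S1PR3 and F2RL1 were the 3 called of 6 (10.4% of all genes).

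**Figure D3:**
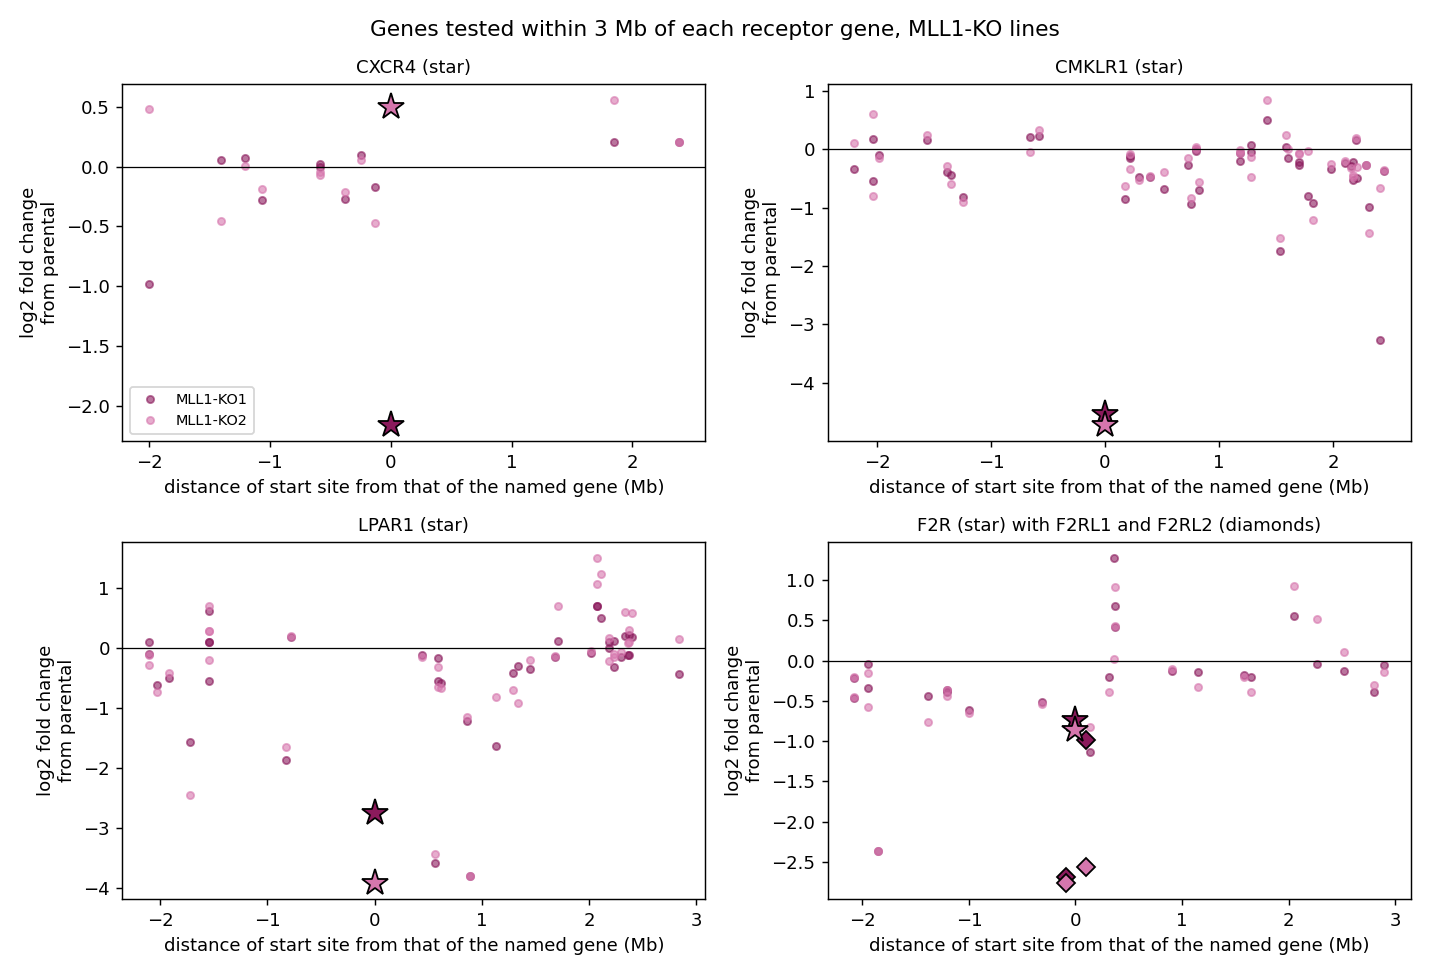
Log2 fold change from parental in MLL1-KO1 (dark) and MLL1-KO2 (light) of the tested genes within 3 Mb of CXCR4, CMKLR1, LPAR1 and F2R, against the distance between start sites in Mb. Stars mark the named gene and diamonds F2RL1 and F2RL2; CXCR4 in MLL1-KO1 at -2.16 lies under all 11 of its neighbours, while near LPAR1, at -2.75 in MLL1-KO1, PTGR1 lay lower at -3.57 in that line.

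Most of the other chemokine receptors were scarce in these cells, though not CCRL2 and GPR1. Of 19 related receptors listed in the table, 3 were tested and the other 16 were at most 0.671 TPM. CCRL2, which binds chemerin without signalling, was at 59.7 ± 2.34 TPM (SD, n = 2) in parental and was called lower in 4 lines, with log2 fold changes of -0.90 (SAP30-KO1), -1.16 (SAP30-KO2), and -2.22 and -2.26 in MLL1-KO1 and MLL1-KO2. In the libraries labelled as double KO its values were -0.45 and -0.44. GPR1, another receptor that binds chemerin, was called in MLL1-KO1 alone, with -1.50 against -0.43 in MLL1-KO2, and these lines differed by 1.07 (limma adjusted p = 6.5e-05). CCR1, a receptor for CCL3 and CCL5, was at 0.845 TPM in parental and 8.20 and 10.2 in the MLL1-KO lines, a log2 fold change of 2.71 and 3.01.
GPR1 means were 15.5 TPM in parental, 18.0 in SIN3A+SIN3B-DKO2, and 5.19 and 11.4 in MLL1-KO1 and MLL1-KO2.

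In the list of 25 other chemokines 8 were tested. IL8 (CXCL8), which attracts neutrophils, was at 18.3 ± 0.828 TPM (SD, n = 2) in parental, 98.7 ± 0.267 in SIN3A+SIN3B-DKO1 and 64.2 ± 16.5 in SIN3A+SIN3B-DKO2, called higher in both, and at 10.6 in SAP30-KO2, called lower there. The neutrophil attractant CXCL1 was called higher in SIN3A+SIN3B-DKO1 (0.82), MLL1-KO1 (2.11) and MLL1-KO2 (1.64). CXCL11, a ligand of CXCR3, passed the filter through SAP30-KO1 and 1 other library, with 1.39 TPM in SAP30-KO1 against 0.175 in parental, so that it had to be high there. Called higher were 4 of the 8 in SIN3A+SIN3B-DKO1, 2 in SIN3A+SIN3B-DKO2, 1 in SAP30-KO1, 0 in SAP30-KO2, 1 in MLL1-KO1 and 3 in MLL1-KO2, and called lower were 1 in SAP30-KO2 and 2 in each MLL1-KO line. Over all genes at most 10.2% were called higher in a line, and 8.12% (SAP30-KO2), 16.3% (MLL1-KO1) and 14.9% (MLL1-KO2) were called lower.

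Of 18 other lysophospholipid receptors and enzymes 13 were tested, and 4 to 6 were called lower in each line, where 7.56% to 16.3% of all genes were. LPAR5, which had to be lower, is in each of these counts. Called higher were 3 in MLL1-KO1, 2 in MLL1-KO2, 1 in SIN3A+SIN3B-DKO2 and 0 in the other lines. SPHK1, which makes sphingosine 1-phosphate, was at 6.85 TPM in parental and 34.4 (MLL1-KO1) and 38.8 (MLL1-KO2), log2 fold changes of 2.25 and 2.42. PPAP2C, a lipid phosphate phosphatase, was called higher in the same lines, by 1.2 and 1.64 on the log2 scale, and lower in both SAP30-KO lines and SIN3A+SIN3B-DKO1. S1PR5, another sphingosine 1-phosphate receptor, was at 4.35 ± 0.438 TPM (SD, n = 2) in parental and was called lower in all 6 lines, the log2 fold change running from -1.18 in SAP30-KO1 to -2.74 in SIN3A+SIN3B-DKO1. Over all genes tested 2.67% were lower in all 6 lines. SPNS2, the exporter of sphingosine 1-phosphate, was at 7.24 TPM in parental, 1.21 to 1.63 in the SAP30-KO and SIN3A+SIN3B-DKO lines, 11.5 in MLL1-KO1 and 4.18 TPM in MLL1-KO2. It was called in every line, higher in MLL1-KO1 (0.65) and lower in the others, and the MLL1-KO lines differed by -1.37 (limma adjusted p = 2.2e-05). LPAR5, a lysophosphatidic acid receptor, was at 1.88 TPM in parental on 37 and 41 reads and had 0 to 5 reads in each edited library. It passed the filter only through parental and had to differ.

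Of 10 genes around the protease-activated receptors 8 were tested. F3, tissue factor, which starts thrombin generation, was at 431 ± 19.4 TPM (SD, n = 2) in parental and was called lower in all 6 lines, at 223 to 273 in the SAP30-KO and SIN3A+SIN3B-DKO lines and 126 and 104 in MLL1-KO1 and MLL1-KO2. F2RL2, which lies 92.7 kb before F2R on chromosome 5, was at 4.33 TPM in parental, 10.6 in SIN3A+SIN3B-DKO1 (log2 fold change 1.2, called higher), and 0.252 and 0.226 in MLL1-KO1 and MLL1-KO2 (-2.68 and -2.76, called lower). All 3 receptor genes of this cluster were thus lower in both MLL1-KO lines. F2RL3, another thrombin receptor, was at 2.74 ± 1.07 TPM (SD, n = 2) in parental and was called lower in 5 lines, with 0.0888 to 0.709 TPM in the SAP30-KO and SIN3A+SIN3B-DKO lines and 1.18 in MLL1-KO1, and 3.40 in MLL1-KO2. F2RL3 starts 8.65 kb after the end of SIN3B, a gene targeted in 2 of these lines.

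Of 23 G protein, GRK, arrestin and RGS genes, which couple receptors to their signals, 21 were tested. In SAP30-KO1 and SAP30-KO2 3 of them were called, against 15.7% and 15.6% of all genes, and in MLL1-KO2 9 were, against 25.2%. Called in SIN3A+SIN3B-DKO1 were 4 (16.4% of all genes), in SIN3A+SIN3B-DKO2 5 (13.6%) and in MLL1-KO1 6 (23.2%). The arrestins moved apart. ARRB2, beta-arrestin 2, was at 22.6 ± 1.70 TPM (SD, n = 2) in parental and 46.2 to 70.0 in the 6 lines, called higher in each, as were 0.945% of all genes tested. ARRB1, beta-arrestin 1, was at 23.6 ± 0.731 TPM in parental and 10.7 to 13.5 in 5 lines, called lower in each, and at 29.2 in MLL1-KO2 (0.30, not called). The neighbours of ARRB1 had a median of -0.43 in SAP30-KO1 and -0.17 in MLL1-KO1. ADRBK2, which encodes GRK3, was at 1.33 TPM in parental and was called higher in 5 lines, at 3.12 to 3.84 TPM. In MLL1-KO1 it was at 2.03 TPM.

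**Figure D4:**
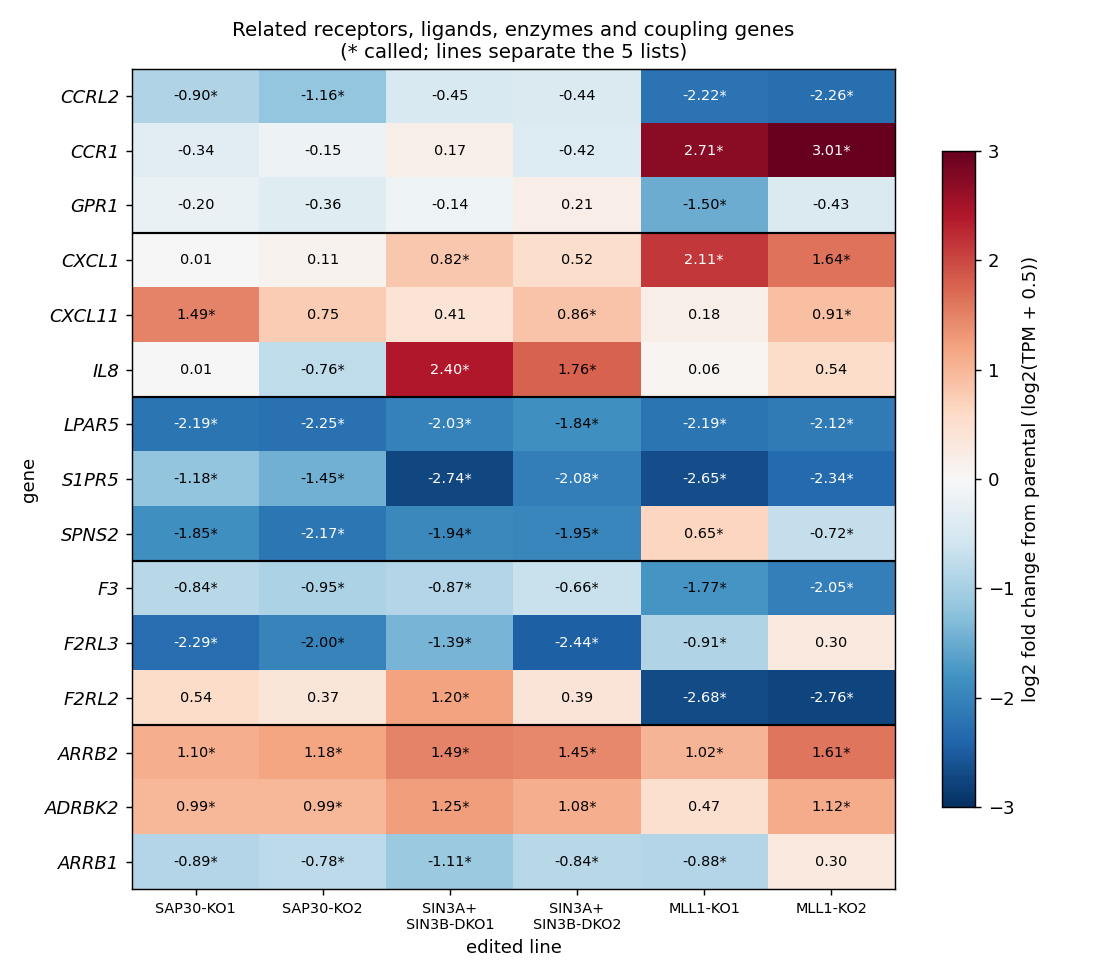
Log2 fold change from parental, as a colour and a printed value, of the 3 genes named from each of the 5 lists (rows, separated by lines) in the 6 edited lines (columns), with a star where a gene was called. LPAR5, S1PR5 and F3 are lower and ARRB2 higher in every column, while CCR1 is called in the MLL1-KO lines alone.

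The genes whose levels followed the receptors most closely were sought over the 7 condition means, among 3615 tested genes whose means span at least 2-fold. For CXCR4 these were CCDC136, with a Pearson correlation of 0.9841, SLC46A1, the proton-coupled folate transporter, with 0.9827, and TAPT1 with 0.9812. TAPT1 was at 12.5 TPM in parental, 18.0 to 19.7 in the SAP30-KO and SIN3A+SIN3B-DKO lines, 7.74 in MLL1-KO1 and 14.1 TPM in MLL1-KO2. For CMKLR1 they were SPTSSB, a subunit of serine palmitoyltransferase, with 0.9872, IGFBP4, which binds insulin-like growth factors, with 0.9832, and the pseudogene HNRNPA1P33 with 0.9806, whose reads may come from near-identical copies. IGFBP4 was at 3368 TPM in parental, 1958 and 2072 in the SAP30-KO lines, 877 and 1172 in the libraries labelled SIN3A+SIN3B-DKO, and 835 and 819 in the MLL1-KO lines. Over 7 points and 3615 candidates, high values of this kind are a description only.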

How the data were processed

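The authors isolated total RNA, prepared libraries with the KAPA mRNA HyperPrep kit and sequenced them on an Illumina NextSeq instrument. The submitters' processing notes name FastQC 0.11.2, TopHat, featureCounts and hg19, and the annotation is not given in the sources used here. The deposited values are named RPKM, but each library sums to the same total, so they were used as TPM, and the test planned for RPKM was kept because it suits both units. With a fixed total per library, a rise of some genes lowers others, and total RNA per cell is not seen. The values rise in steps of 1 read, from which whole reads came out for 18519 of 18519 genes above 0 (100.0%, tolerance 0.05 reads), with a median of 21648618 reads per library. Of the gene names, 28 had become dates and these rows were kept as they stand. Values that rest on few reads have wide counting error.

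The 9 genes, the 5 lists and the markers were chosen with earlier results of these data known, and 1 listed marker is not reported here. Groups and replicate numbers come from the labels. limma 3.58.1 in R 4.3.3 was fitted on log2(TPM + 0.5) with a mean for each of the 7 conditions and a variance trend, all 14 libraries together (7 residual and 3.58 prior degrees of freedom), for 13540 genes, and was tested on simulated data. Genes named besides the 9 and the targeted genes are, per list, the 3 called in most lines, with ties broken by the mean change, and the 3 most correlated with CXCR4 and with CMKLR1. C9orf47, HVCN1, PTGR1, SPHK1, PPAP2C and LPAR4 were named after their values were seen. Same-numbered libraries did not deviate together (mean correlation 0.015 over 21 pairs of groups, from -0.073 to 0.082), and no block was used. Replicate libraries were not copies of each other (chi-square of their reads per degree of freedom 1.46 to 7.66). Gene positions are those of GENCODE release 44 on GRCh37, and promoter windows those of RefSeq on GRCh38.p14. Alternatives were pseudocounts of 0.1 and 1, no filter, quantile and median ratio scaling, a 2-fold minimum, the replicate block, voom on recovered reads, subtraction of the median of 51 neighbouring genes, and leaving out each library. Tables and plots were made in Python 3.11.15 (pandas 2.3.3, numpy 2.4.6, matplotlib 3.10.9, scipy 1.17.1).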

Additional observations from a re-analysis of the deposited data

Results flagged for a closer look

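Lines of the same genotype differed from each other past the test for LPAR1, F2RL1 and S1PR3, and CXCR4 and CMKLR1 differed without a test. LPAR1 was lower in MLL1-KO2 than in MLL1-KO1 by a log2 difference of -1.16, and F2RL1 by -1.57, both past limma's test of the difference. S1PR3 was higher in MLL1-KO2 than in MLL1-KO1 by 0.77, and lower in SIN3A+SIN3B-DKO2 than in SIN3A+SIN3B-DKO1 by -0.66, also past that test. CXCR4 was lower than parental in both libraries of MLL1-KO1 and higher in both of MLL1-KO2, a log2 difference of 2.66 between the lines, and this difference was not tested because it chose the gene. CMKLR1 had 0 reads in both libraries of SIN3A+SIN3B-DKO1 against 49 and 59 in SIN3A+SIN3B-DKO2, and this was not tested for the same reason. MLL RNA was at 16.6 TPM in MLL1-KO1 and 26.7 TPM in MLL1-KO2, and its part in these differences was not tested.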

How the results depend on the processing

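There were 23 alternatives and 48 pairs of a gene and a comparison with parental. Of their values, 1065 kept their direction and their side of the thresholds, or for untested values moved by less than 1 SE. Another 8 lost a call, 9 gained one, 17 untested values moved and 5 changed sign. The sign changes were all of values near 0: F2R in SAP30-KO1 was 0.02 with voom and ran from -0.06 to 0.06 when single libraries were left out (0.06 without parental replicate 1, 0.02 without SAP30-KO1 replicate 1), F2R in SAP30-KO2 ran from -0.10 to 0.01 (0.01 without parental replicate 1), and F2RL1 in SIN3A+SIN3B-DKO1 was 0.02 with the neighbours' median subtracted. With a 2-fold minimum, 0 genes were called between the SIN3A+SIN3B-DKO lines, S1PR3, the 1 called otherwise, falling under it, and S1PR3 in SIN3A+SIN3B-DKO2 and MLL1-KO2, F2R in both MLL1-KO lines and F2RL1 in MLL1-KO1 were no longer called. S1PR1 in SAP30-KO1 and SAP30-KO2 was called with a pseudocount of 0.1 (0.67 and 0.65) and with voom (0.71 and 0.69), and in SAP30-KO1 with quantile normalization (0.59). The untested CMKLR1 values moved with the pseudocount, from -3.77 with 1 to -7.00 with 0.1 in SIN3A+SIN3B-DKO1, since its reads there are 0. Leaving out each library in turn, the genes called numbered 4 to 5 in SAP30-KO1, SAP30-KO2 and SIN3A+SIN3B-DKO2, 2 to 2 in SIN3A+SIN3B-DKO1, 6 to 6 in both MLL1-KO lines, and 0, 1 and 3 between the lines of SAP30, SIN3A+SIN3B and MLL1, with a lone library assumed to vary like the other groups. With the replicate number as a block, 4 genes were called in SAP30-KO1, 4 in SAP30-KO2, 2 in SIN3A+SIN3B-DKO1, 4 in SIN3A+SIN3B-DKO2, 6 in each MLL1-KO line and 0, 1 and 3 between lines, as without it. Quantile normalization moved the median of all genes by 0.15 (MLL1-KO1) and 0.06 (MLL1-KO2) on the log2 scale, and CXCR4 in MLL1-KO1 was -1.90 under it.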
